A study of Caenorhabditis elegans with 4 samples.

Results

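The regions described here are those on chromosomes II and V in a list of chromatin stretches enriched for Pol II, the RNA polymerase of protein-coding genes, in Caenorhabditis elegans. They were selected by chromosome name, and the pair was chosen from the list itself, as the autosomes with the fewest regions per Mb. The choice gave 352 of 1310 regions, with 176 on chromosome II and 176 on chromosome V. The study used chromatin immunoprecipitation and sequencing (ChIP-seq) on whole hermaphrodite young adults of the wild-type strain N2, grown at 20 °C on HB101 bacteria and fixed in 2% formaldehyde. Its libraries were 2 of ChIP DNA, precipitated with the monoclonal antibody 8WG16, and 2 of input DNA, made from the same kind of chromatin without selection and used as control. The protocol text shared by the samples also mentions embryos and an anti-GFP serum, which differ from the stage and antibody on the sample labels. Positions are those of WormBase build WS180, as the list gives them.

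The largest subunit of Pol II, encoded by ama-1, carries a long tail of heptapeptide repeats whose phosphorylation changes as the enzyme moves from promoter into gene. The antibody 8WG16 binds this tail and prefers repeats that are not phosphorylated. Autosomes of this worm have a gene-dense central part that recombines little and carries many conserved, broadly transcribed genes, flanked by arms that recombine more and hold more repeats and more members of fast-evolving gene families. Chromosome V is known for its very large families of chemoreceptor genes, most of which are thought to act in a few sensory neurons. A whole worm mixes all tissues, so strong Pol II occupancy in few cells and weak occupancy in many cells cannot be told apart.

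The deposited list joins both replicates into 1 set of regions, each with a start, an end and a q-value, so no value below has a replicate error and no test between groups of samples could be made. The depth of the libraries is unknown. The q-values nevertheless returned whole numbers of ChIP tags and scaled control tags (sequenced fragments) for 350 of the 352 regions, with the larger number taken as ChIP. The remaining members, which had the lowest listed q-values of II and of V, lay below the smallest probability searched. They are absent from all rankings and counts of enrichment below. Enrichment is given below as the ratio of ChIP tags to scaled control tags, and both numbers are given in that order. Its 95% exact interval, like the intervals of shares and of regions per Mb, covers counting error only, and regions that lie in groups are not independent, which makes the intervals too narrow. The first listed q-value belongs to rank 30, and 29 regions of higher rank were not analysed here. Any of them could lie on II or V, inside what is described below as an empty stretch. Lowest q-values, highest ratios and first places in the list are given below among the listed regions only. Differences between chromosomes or between parts of a chromosome were not tested.

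Chromosome II carried 11.6 regions per Mb (95% Poisson interval 9.91 to 13.4) and chromosome V 8.44 (7.24 to 9.79). These values chose the pair and are given as a description. Just outside the choice stood chromosome III, with 15.5 per Mb, and the sex chromosome X, which the choice of autosomes left out, had 7.03. Regions covered 504 kb of II, or 3.31% of it, and 571 kb of V, or 2.74%, against 3.48% of all 6 chromosomes. The description of II as sparse depended on how the control was scaled. Each chromosome had its own factor for control tags, which was 1.83 on II, the largest of all, and 1.75 on V, but 1.36 on I and 1.39 on IV. With 1.83 applied to every chromosome, the 176 regions of II could not change, and the other chromosomes could only lose regions. Within the p-value limit of the list stayed 157 regions of V and 151 of the 323 on I. Chromosome II, unchanged at 11.6 per Mb, was then above chromosome I with 10.04 and chromosome IV with 8.81. Regions that a smaller common factor would add are not listed, so that direction was not tested. Chromosome V remained the lowest autosome at 7.53 per Mb.

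**Figure D1:**
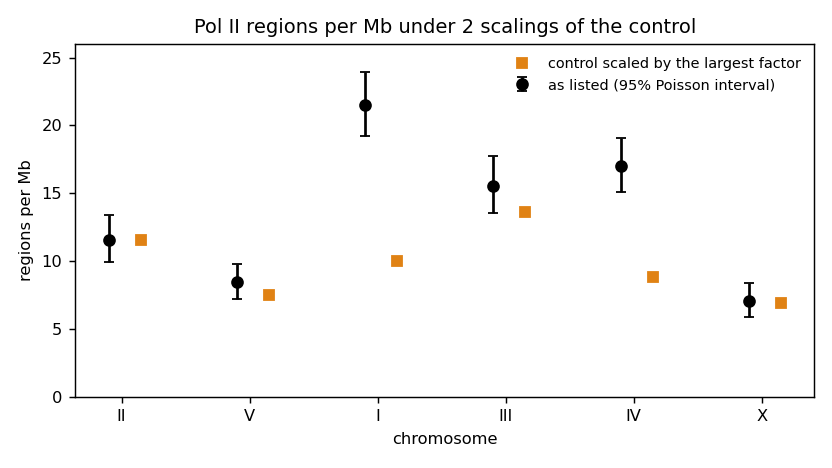
Regions per Mb (vertical axis) on each chromosome (horizontal axis), as listed (black points, with 95% Poisson intervals) and with the control scaled by the largest factor, that of II, on every chromosome (orange squares). The square of II lies at 11.6, above those of I (10.04) and IV (8.81), while V is the lowest autosome with either scaling.

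Relative to gene number, chromosome V had the fewest regions of all. A RefSeq gene table, of assembly WBcel235 and used only for names and chromosomes, places 3446 protein-coding genes on II and 4995 on V, the most of any chromosome. There were thus 5.11 Pol II regions per 100 genes on II and 3.52 on V, against 4.54 on X, 8.10 on III, 9.05 on IV and 11.2 on I. With the largest factor on every chromosome the values were 5.11 on II and 3.14 on V, against 4.47 on X, 7.08 on III, 4.69 on IV and 5.25 on I. Of all 19971 protein-coding genes, 17.3% lie on II and 25.01% on V, and some named families depart from these shares while others do not. Chromosome V holds 890 of 1315 chemoreceptor genes (67.7%), among them 180 of 220 srh and 156 of 193 str genes. It also holds 167 of 269 nhr genes, which encode nuclear hormone receptors, and 42 of 67 ugt and 41 of 74 cyp genes, whose products act in detoxification. Chromosome II holds 60 of 72 bath and math genes and 107 of 322 fbxa, fbxb and fbxc genes, families linked to protein degradation. It also has 13 of 31 msp genes, which encode the major sperm proteins. Of the 78 ribosomal protein genes, rpl and rps, which are transcribed at high levels in most cells, 11 lie on II (14.1%) and 7 on V (8.97%). The his genes, which encode histones, went the other way, with 14 of 72 on II (19.4%) and 27 on V (37.5%). Of the 239 clec genes, 48 lie on II (20.1%) and 85 on V (35.6%). Of the 156 col genes, which encode cuticle collagens, 24 lie on II (15.4%) and 31 on V (19.9%), nearer the shares of all genes. The list gives no genes and its build differs from that of the table, so no gene can be named for any region.

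For a description along their length, the chromosomes were divided into 3 equal parts. Chromosome II was lopsided. Its left part, from 1 to 5076755, held 18 of the 176 regions (10.2%, 95% exact interval 6.17 to 15.7%). The central and right parts held 79 each (44.9%, 37.4 to 52.6%). In density this was 3.55 regions per Mb on the left and 15.6 in each of the others. The first 4 Mb carried 7 of the 18, or 1.75 per Mb (95% Poisson interval 0.704 to 3.61). The rest of the chromosome carried 169 regions, or 15.05 per Mb (12.9 to 17.5). The boundary at 4 Mb was placed after the values were seen. The windows from 4 to 5 and from 5 to 6 Mb held 10 and 20 regions, and the fullest window, from 11 to 12 Mb, held 25. Covered bases gave another order of the windows. The window from 9 to 10 Mb, with 14 regions, had the most covered sequence on II, 58.0 kb, against 47.0 kb in the window from 11 to 12 Mb.

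Chromosome V was thin at both ends. Its left part, from 1 to 6947902, held 45 regions (25.6%, 95% exact interval 19.3 to 32.7%). The central part, up to 13895804, held 93 (52.8%, 45.2 to 60.4%), and the right part 38 (21.6%, 15.8 to 28.4%). The densities were 6.48, 13.4 and 5.47 regions per Mb from left to right. The fall on the right was abrupt in position: the window from 14 to 15 Mb held 15 regions, and the 5 windows from 15 to 20 Mb held 13 in all, or 2.60 per Mb (95% Poisson interval 1.38 to 4.45). The last 0.844 Mb, beyond 20 Mb, held 9 regions again. The fullest window was 9 to 10 Mb with 20 regions, and the most covered was 10 to 11 Mb with 61.7 kb in 13 regions. These boundaries, too, were placed after the values were seen.

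**Figure D2:**
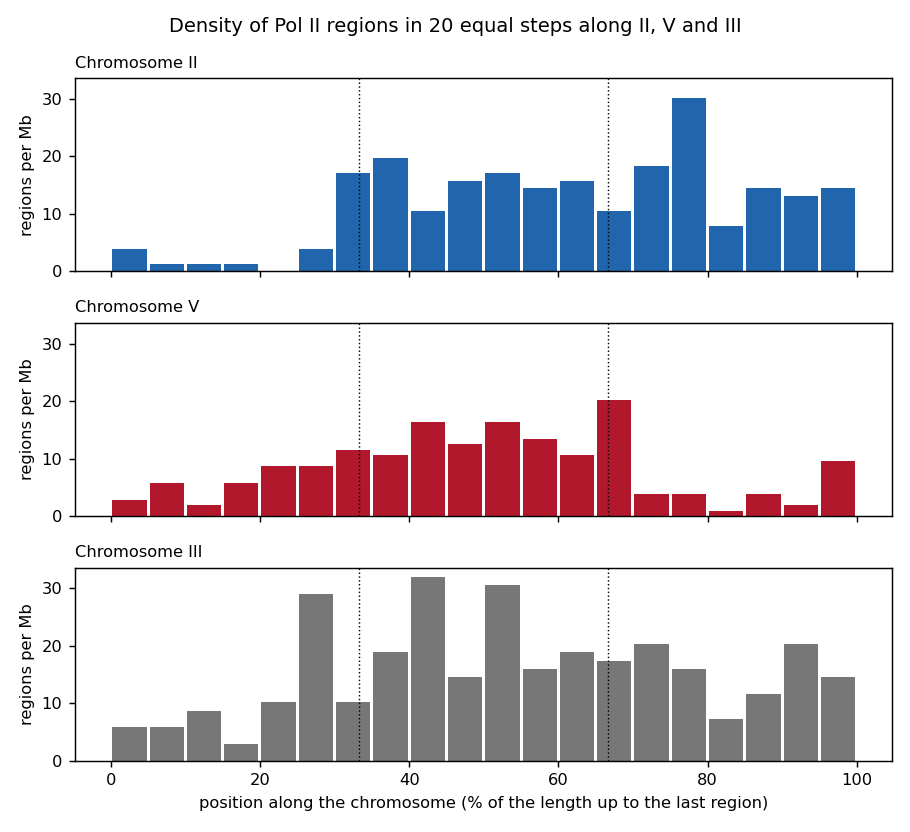
Regions per Mb (vertical axis) in 20 equal steps along chromosomes II, V and III (horizontal axis, percent of the length up to the last region), with dotted lines at the limits of the 3 parts. Chromosome II is low throughout most of its left part and filled in its right part, whereas V is low on both sides of its centre; chromosome III, whose control factor of 1.74 is like theirs, has 10.5, 21.1 and 15.03 per Mb from left to right.

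On both chromosomes long stretches held no listed region. Chromosome II had 19 empty stretches of at least 200 kb, which added up to 8.10 Mb or 53.2% of its length. Chromosome V had 31, which added up to 12.2 Mb or 58.7%. Chromosome III, the next autosome in density as listed but the densest of all with the largest factor on every chromosome, had 15, or 34.1% of its length. Chromosome X, with fewer regions per Mb than either, had 32, or 69.3%, so long empty stretches were not particular to II and V. Fewer regions per Mb leave more and longer empty stretches. The contrast with III is therefore not independent of the value that chose the pair. Such stretches took up 88.2% of the left part of II, 32.5% of its central and 38.9% of its right part. On V they took up 67.5% of the left, 32.8% of the central and 75.8% of the right part. Stretches of at least 500 kb numbered 5 on II and 6 on V, against 1 on III and 6 on X.

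The longest empty stretch of II ran for 1382 kb, from 848975 to 2231452. The next longest ran for 1026.5 kb, from 2924723 to 3951222, and the one after it for 684 kb, from 2235984 to 2920019. These 3 lay next to one another and were separated by single regions, and together they made up 20.3% of the chromosome. The region from 2231453 to 2235983 had a ratio of 1.32 (1.11 to 1.58), from 446 ChIP tags against 338. The region from 2920020 to 2924722 had 790 against 666, a ratio of 1.19 (1.05 to 1.35), and was the most isolated of chromosome II, with its nearest neighbour 684 kb away. On the outer edges stood the region from 845954 to 848974, with 716 against 451 (ratio 1.59, 1.37 to 1.84), and the region from 3951223 to 3961947, with 1736 against 1388 (ratio 1.25, 1.15 to 1.36). All 4 ratios were below the chromosome's median. The fourth stretch of II lay on the right, 578 kb from 12209411 to 12787626, between short regions of 668 and 920 bp with ratios of 1.78 and 1.46. The fifth, 524 kb from 321932 to 845953, lay between regions with ratios of 1.89 and 1.59.

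On chromosome V the longest empty stretch ran for 1148.5 kb, from 16787373 to 17935872. It was bounded on the left by a broad region of 10265 bp with a ratio of 1.27 and on the right by one of 751 bp with a ratio of 1.80. The second, 879 kb from 18640287 to 19519204, differed in its edges. On its left the region from 18637478 to 18640286 had 1433 ChIP tags against 304 (ratio 4.71, 4.03 to 5.55), and on its right the region from 19519205 to 19527987 had 3067 against 896 (ratio 3.42, 3.12 to 3.77). Sparse parts of V were thus not uniformly weak in enrichment. The third ran for 847 kb on the left, from 2731552 to 3578932, between ratios of 1.57 and 1.23. The fourth, 689 kb from 15666039 to 16355425, lay between regions of 6481 and 6527 bp with ratios of 1.22 and 1.32. The fifth, 620 kb from 17950638 to 18570721, lay between ratios of 1.37 and 1.62. The most isolated region of V, from 2729998 to 2731551, had a neighbour no closer than 594 kb and held 311 ChIP tags against 198 (ratio 1.57, 1.27 to 1.97).

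**Figure D3:**
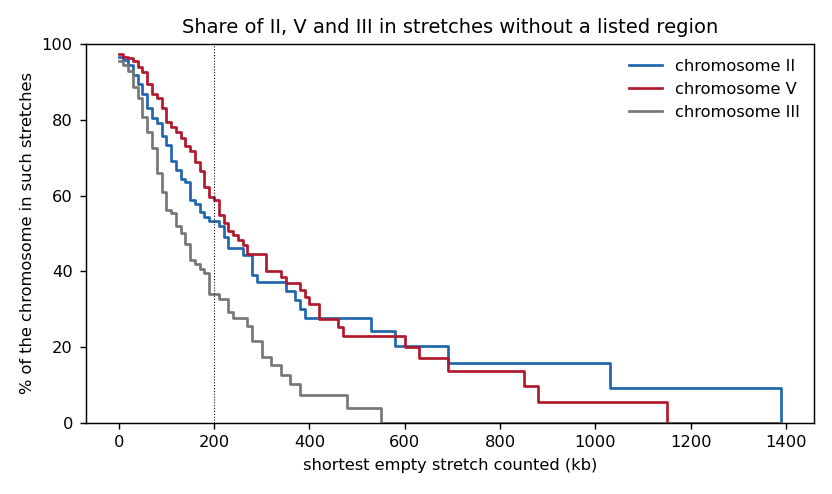
Share of each chromosome (vertical axis, percent) that lay in stretches without a listed region of at least the length on the horizontal axis (kb), for II, V and III, with a dotted line at 200 kb. At 200 kb the curves stand at 53.2% for II and 58.7% for V against 34.1% for III, and the longest stretch of III is 544 kb. The contrast is not independent of the regions per Mb that chose II and V.

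The 5 members with the lowest q-values were all central or right on II, and lay in every part of V. On II the lowest q-value, 1.40e-305, belonged to the 7014 bp from 6342598 to 6349611, for which no tags were recovered. It was followed by 6887617 to 6893211, with 3412 ChIP tags against 1067 (ratio 3.20, 2.93 to 3.50). Then came 5543358 to 5546120, with 1798 against 393 (ratio 4.58, 3.98 to 5.31), the highest ratio on II among regions with tags. The region from 14492071 to 14495911 held 2125 against 583 (ratio 3.64, 3.24 to 4.11), and the one from 10924736 to 10931528 held 2682 against 983 (ratio 2.73, 2.49 to 3.0). The first 3 were central and the other two on the right. The intervals of the ratios at 5543358 and 10924736, a pair picked after the values were seen, did not overlap. They cover counting error only, and the difference was not tested.

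On V the lowest q-value, 8.02e-298, belonged to the 5848 bp from 11884188 to 11890035, again without recovered tags. Second stood the region from 19519205 described above, in the sparse right part. Next came 9342856 to 9346190, with 2417 ChIP tags against 589 (ratio 4.10, 3.66 to 4.62). The region from 13907037 to 13911862 held 2523 against 650 (ratio 3.88, 3.48 to 4.34), and the one from 6513154 to 6518148 held 2963 against 963 (ratio 3.08, 2.81 to 3.38). In the list ordered by p-value, II and V together held 207 of the first 655 regions (31.6%, 95% exact interval 28.1 to 35.3%) and 145 of the last 655 (22.1%, 19.0 to 25.5%), against 26.9% of all. They held 36 of the first 100 listed regions, which start at rank 30 (36.0%, 26.6 to 46.2%), with 18 from each chromosome. This contrast was computed with the chromosomes' own control factors. With the largest factor on every chromosome, II and V made up 35.2% of all 947 regions kept. The list was not ordered again with that factor, so their share of its first regions is then unknown.

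**Figure D4:**
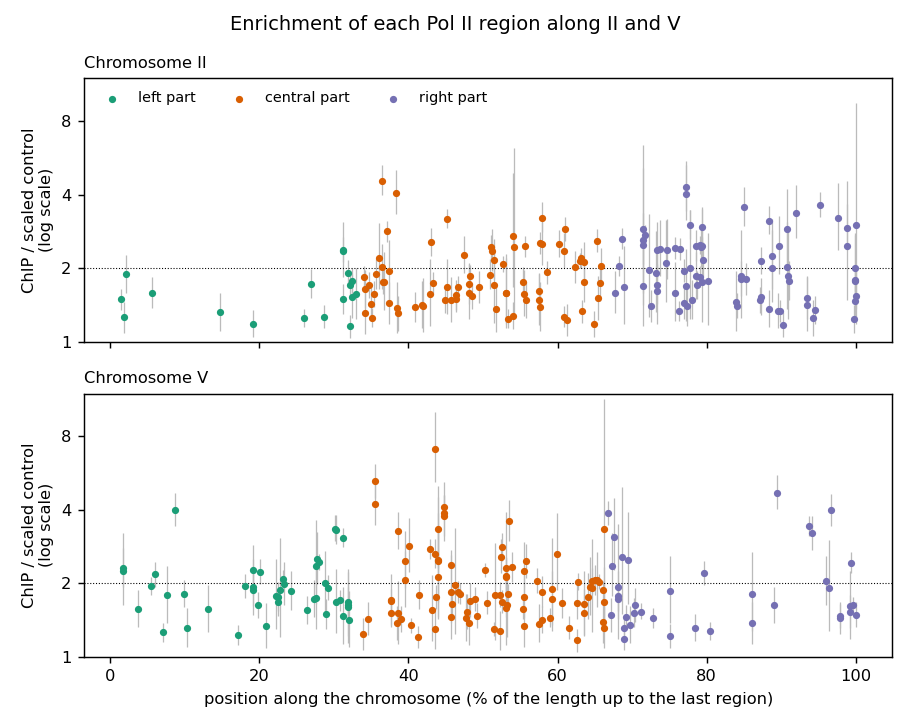
Ratio of ChIP to scaled control tags (vertical axis, log scale) of each of the 350 regions with tags on II and V, by position (horizontal axis, percent of the length up to the last region). Points are coloured by part, grey lines are 95% exact intervals and the dotted line marks a ratio of 2; on II no region of the first 4 Mb reaches 2, whereas on V the 6 ratios of at least 4 stand on the left (1), in the centre (4) and on the right (1).

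Ratios of at least 2 were found in 66 of 175 regions on II (37.7%) and in 61 of 175 on V (34.9%), against 38.4% of all 1301 listed regions with tags. Ratios of at least 4 were found in 10 of the 350 members, 4 on II and 6 on V, or 2.86%, against 2.54% of all. Both shares were near those of the whole list, in which each chromosome has its own control factor. The members above 4 on II were, after 5543358 to 5546120, the 961 bp from 11756269 to 11757229 (642 ChIP tags against 149, ratio 4.31, 3.43 to 5.52), the 715 bp from 5844572 to 5845286 (796 against 195, ratio 4.08, 3.34 to 5.07) and the 822 bp from 11761582 to 11762403 (514 against 127, ratio 4.05, 3.16 to 5.30). The regions at 11756269 and 11761582 belonged to 1 group of 3 regions within 6135 bp. The intervals of all 4 overlapped one another, so their order is not resolved.

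On V the highest ratio among regions with tags was 7.14 (5.22 to 10.1), with 514 ChIP tags against 72 in the 729 bp from 9088575 to 9089303. It was followed by 7414659 to 7417267, with 1529 against 292 (ratio 5.24, 4.47 to 6.19), whose interval overlapped that of the first. Its direct neighbour, 7412434 to 7414321, lay 337 bp to the left and held 778 against 184 (ratio 4.23, 3.46 to 5.25). The right part contributed the region from 18637478 already described. The left part contributed 1803952 to 1806539, with a ratio of 4.01 (3.45 to 4.71), which was chosen after its values were seen.

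The median ratio was 1.77 on II (95% interval of the median 1.70 to 1.88; quartiles 1.49 and 2.37) and 1.78 on V (1.70 to 1.87; quartiles 1.52 and 2.25), against 1.82 in the whole list. On III, with a like control factor, it was 1.75. Within II the median was lowest on the left and highest on the right. The left part had 1.55 (1.27 to 1.77), the central 1.73 (1.59 to 1.90) and the right 1.91 (1.78 to 2.15), and the intervals of the left and right parts all but touched. In the left part 2 of 18 ratios reached 2, and in the right part 37 of 79 did. None of the 7 regions in the first 4 Mb reached 2, and their median was 1.32. On V the parts were closer, with medians of 1.82 (1.68 to 1.95) on the left, 1.80 (1.69 to 1.93) in the centre and 1.63 (1.48 to 1.94) on the right.

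The median length was 2433.5 bp on II (95% interval of the median 1951 to 2873 bp) and 2601 bp on V (2134 to 3050.0 bp), against 2032 bp in the whole list, 2197.5 bp on III and 3155 bp on X. The interval of II held the values of the whole list and of III, and the interval of V held that of III. Length, like ratio, varied by part on II but in the other direction: the median was 4318 bp (3021 to 5374 bp) on the left, 2591 bp (2341 to 3211 bp) in the centre and 1735 bp (961 to 2383 bp) on the right. On V it was 2542 bp on the left, 2269 bp in the centre and 3216 bp on the right, with overlapping intervals. In these medians the regions of the left part of II were longer and less enriched than those of its right part, and none of the 18 was shorter than 1309 bp. ChIP tags per kb did not follow the order of the ratios: their median was 218 on the left of II, 278 in the centre and 246 on the right.

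The longest member lay on V from 10463449 to 10477720, with 14272 bp and 4628 ChIP tags against 2037 (ratio 2.27, 2.13 to 2.43). The next on V, 10711740 to 10725005, was almost as long, with 13266 bp, but held 2989 against 2295 (ratio 1.30, 1.22 to 1.39). The intervals of these broad regions, which cover counting error only, did not overlap, and the difference was not tested. The third, from 8414990 to 8427876, had a ratio of 1.35 (1.25 to 1.45), the fourth, from 14841000 to 14851636, 1.53 (1.42 to 1.65), and the fifth, from 13649582 to 13660036, 2.03 (1.90 to 2.18). On II the longest was 9597570 to 9608301, with 10732 bp and 3683 against 1716 tags (ratio 2.15, 2.00 to 2.31). Nearly as long, with 10725 bp, was the region from 3951223 at the edge of the empty left part, with its ratio of 1.25 (1.15 to 1.36). Then followed 8010854 to 8021110 (ratio 2.08, 1.93 to 2.24), 12048064 to 12057516 (ratio 2.49, 2.29 to 2.71) and 8476992 to 8484137 (ratio 2.46, 2.23 to 2.72). Members of at least 10000 bp numbered 3 on II and 6 on V, out of 19 in the list.

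The shortest members rested on few tags. On V the 62 bp from 13797135 to 13797196 held 30 ChIP tags against 9 (ratio 3.33, 1.32 to 11.3), the 281 bp from 14192637 held 66 against 34 (ratio 1.94, 1.18 to 3.51), and the 334 bp from 10771402 held 86 against 48 (ratio 1.79, 1.17 to 2.92). On II the 116 bp from 15228812 to 15228927 held 36 against 12 (ratio 3.0, 1.37 to 9.51), the 155 bp from 8257642 held 44 against 18 (ratio 2.44, 1.29 to 6.21) and the 245 bp from 10885616 held 62 against 25 (ratio 2.48, 1.42 to 5.16). On II the control numbers of all 3 are not rounded multiples of the chromosome's factor, so their unscaled control tags, and with them these intervals, are approximate. With the largest control factor on every chromosome none of the 3 shortest regions of V was kept. The widths of the intervals leave little to be said of differences among these regions.

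At the other end stood long regions with ratios little above 1. The lowest ratio of II, 1.16 (1.04 to 1.29), belonged to the 5816 bp from 4901890 to 4907705, with 1026 ChIP tags against 888. It was followed by 13733975 (1.18, 1.05 to 1.33), 9888477 (1.18, 1.04 to 1.34), the isolated region at 2920020 (1.19) and 9336826 (1.23, 1.06 to 1.43). On V the lowest was 1.17 (1.05 to 1.30), in the 5082 bp from 13041560 to 13046641 with 1040 against 891. It was followed by 14349593 (1.18, 1.06 to 1.31), 8603596 (1.20, 1.08 to 1.34), 15659558 (1.22, 1.09 to 1.36) and 3578933 (1.23, 1.12 to 1.35). The first 3 of these on V were not kept with the largest control factor. Nearest to the q-value limit of 0.01 came regions of very unlike shape. On II these were 4901890 (q = 0.00944), 9888477 (q = 0.00925), 14349450 (q = 0.00819), 5853545 (q = 0.00731) and 8257642 (q = 0.00729), with lengths between 155 and 5816 bp and ratios between 1.16 and 2.44. On V they were 6664792 (q = 0.00978), 14192637 (q = 0.00970), 11067640 (q = 0.00949), 10896134 (q = 0.00736) and 10771402 (q = 0.00731), with lengths between 281 and 1350.0 bp and ratios between 1.28 and 1.94. None of these 5 on V was kept with the largest control factor, which was that of II and so left the regions of II as they were.

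**Figure D5:**
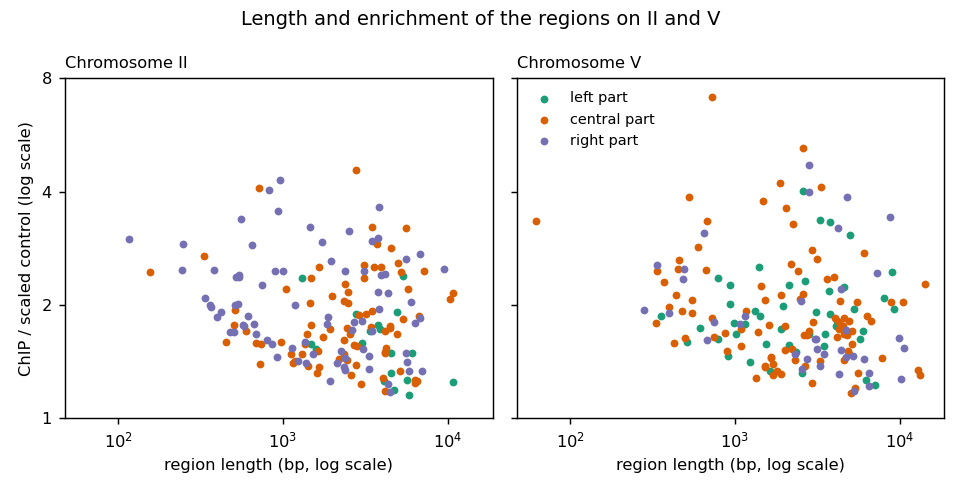
Ratio of ChIP to scaled control tags (vertical axis, log scale) against region length (horizontal axis, bp, log scale) for the 175 regions with tags on II and the 175 on V, coloured by part. No region under 1000 bp lies below 1.39 on II or 1.46 on V, and the left part of II sits among long regions of mostly low ratio.

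Across regions, longer members had somewhat lower ratios. Between log10 length and log10 ratio, Pearson's r was -0.21 and Spearman's rho -0.17 over 175 regions on II, and r was -0.21 and rho -0.22 over 175 regions on V. The regions share libraries, depth and the q-value limit, so these are descriptions. The relation was uneven along the chromosomes, with r = 0.01 over 78 regions in the centre of II, -0.22 over 79 on its right and -0.44 over 18 on its left. On V it was 0.12 over 45 regions on the left, -0.28 over 92 in the centre and -0.24 over 38 on the right. No member under 1000 bp had a ratio below 1.39 on II or 1.46 on V, while those of at least 5000 bp went down to 1.16 on II and 1.17 on V, and the part of the q-value limit in this was not tested. Regions of at least 5000 bp, 28 on II and 34 on V, held 37.0% of the covered bases of II and 45.1% of those of V.

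Neighbours within 5000 bp, measured from edge to edge, were found for 72 regions on II (40.9%) and 68 on V (38.6%), against 46.3% on III and 33.1% on X. They made up 31 groups on II and 28 on V, and 23 and 20 of these were pairs. Within II grouping varied: 43 of the 79 regions on the right (54.4%) had such a neighbour, against 25 of 79 in the centre (31.6%) and 4 of 18 on the left (22.2%). On V the shares were 45.2% in the centre, 33.3% on the left and 28.9% on the right. The richest group lay on V from 13783169 to 13797196, with 5 regions in 14028 bp and ratios between 1.31 and 3.33. It kept 3 of them with the largest control factor. Groups of 4 lay on V from 9159336 to 9165398 (ratios 2.13 to 3.34) and from 6653502 to 6666028 (ratios 1.41 to 1.67), the second of which kept 2 regions with that factor. On II the richest were the 4 regions from 10885616 to 10893749, which begin directly after an empty stretch of 380 kb, and the 4 from 12091942 to 12104314. Next came 6 groups of 3. Of these the one with the shortest span, at 11756269 and already described, also held a region with a ratio of 1.69.

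Spacing outside these groups differed between the chromosomes. On V 58 regions (33.0%) had their nearest neighbour at least 50 kb away, against 28 on II (15.9%) and 36 on III (16.8%). The share for X is not given here. Distances to neighbours, like the shares with a neighbour above, depend on regions per Mb, the value that chose the pair. These contrasts are therefore not independent of it. The distant regions of V were long, with a median of 3493.5 bp, against 1898 bp for its grouped ones, and they held 42.6% of its covered bases. Their median ratio, 1.80, was close to the 1.76 of the grouped regions of V. On II the distant regions had a median of 2994.5 bp and a ratio of 1.67, and the grouped ones 1961 bp and 1.98. Over each chromosome the median distance to the nearest neighbour was 8.49 kb on II and 18.3 kb on V, against 7.06 kb on III and 15.6 kb on X.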

How the data were processed

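The authors deposited 1 list of regions that combines both replicates; it names PeakSeq in each row and WormBase build WS180 in its header. Each region has positions and a q-value, given by the authors and below 0.01 throughout, per the file headers and columns. The sources used here do not give the aligner, any version or the read filters. The members and every list, rule and boundary were chosen with earlier results of these data known.

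Tags were recovered by reading each q as p × tests / rank, where p is a one-sided binomial probability at odds of 0.5. Starting the ranks at 30, with 14435 tests, matched 11 of 12 probe regions, and the next best rank 1. A single pair of tag numbers came out for 1301 of 1310 regions, within a tolerance of 1e-10 on the log scale. The list does not say which number is ChIP; the larger was taken, as PeakSeq scores enrichment. Control tags on each chromosome were whole multiples of 1 factor, rounded up, in 96.6 to 98.6% of regions. Each factor was picked on these same regions to raise the match above 1 / factor, the share of all whole numbers that would match. The recovery and the position summaries were tested on simulated data. The simulated enrichment covered a narrower range than the ratios reported here, and the smallest probabilities were left out. Recovery outside that range was not tested.

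Chromosome lengths were taken as the end of the last region. The 3 parts of a chromosome are equal, and a region belongs to the one with its midpoint. Intervals are exact (Clopper-Pearson, Poisson, or order statistics for medians, 95%). Regions named were, on each chromosome, the 5 with the lowest q, the 5 longest, the 3 shortest, the 5 highest ratios among regions of at least 500 bp, the 5 lowest ratios, the 5 nearest the q limit, those beside the 5 longest empty stretches, the most isolated one, and the 3 richest groups within 5000 bp. Groups with equal numbers of regions were ranked by the shorter span. Sequences and gene positions were not used here. Calculations ran in Python 3.11.15 with pandas 2.3.3, NumPy 2.4.6 and SciPy 1.17.1, and plots in matplotlib 3.10.9.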

Additional observations from a re-analysis of the deposited data

How the results depend on the processing

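There were 110 alternatives for 18 values on II and V, all planned with earlier results known. Counts and longest stretches had to stay within 1.5 times the value as reported, and all other values within its interval. By this rule 83 stayed and 27 did not. Some of the 83 could not have moved. The largest control factor is that of II, so it left every value of II unchanged. Merging within 1000 or 5000 bp could not change empty stretches of at least 200 kb. The central and left shares stayed in every alternative on both chromosomes, and the right share did on V. The right share of II fell to 36.3% as covered bases. Among the more significant 655 regions of the list, densities were 6.57 (II) and 5.13 (V) per Mb, longest empty stretches 3242 and 1783 kb, median lengths 3390.5 and 3638 bp, median ratios 2.12 and 1.95, and shares with a neighbour 28.0 and 21.5%; fewer regions and lower q-values are built into that alternative. Merging within 1000 bp left 19.9% (II) and 19.7% (V) with a neighbour and a median of 3113.5 bp on V. Merging within 5000 bp gave 8.86 and 6.52 per Mb and medians of 3570.0 and 3943 bp. Stretches numbered 42 and 60 from 100 kb, and 9 and 18 from 300 kb. Shares with a neighbour were 26.7 and 26.1% within 1000 bp, and 52.8% within 10000 bp on II. Without scaling the control, median ratios were 3.26 and 3.14. The smallest regions rest on few tags, with intervals of the ratio that span several-fold. No paired analysis was possible because each region was scored on joined replicates; for that reason no replicate was left out.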
